A study of Mus musculus with 24 samples.

Results

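The genes that encode collagen chains were followed through muscle of 2 mouse strains after a large wound, with and without an implanted material. They were taken as every gene of the expression table whose symbol reads Col, a type number, the letter a and a chain number. That rule found 42 of the 14159 genes. Of these, 9 encode chains of the fibrillar types 1, 2, 3, 5 and 11, 6 encode the basement membrane chains of type 4, and 27 encode chains of other types. A chain gene below the authors' filter of more than 1 CPM (counts scaled to a common library total) in at least 3 libraries was not in the table and was not analysed here. All members had therefore passed that filter.

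RNA came from whole quadriceps muscle of female C57BL/6J (B6) and MRL/MpJ (MRL) mice that were 6 to 8 weeks old at surgery. MRL is an inbred strain known for closing ear wounds by regrowth. Each strain had 4 groups of 3 libraries: uninjured muscle, and muscle from which a piece of 3 mm by 3 mm was removed (volumetric muscle loss) and the defect filled with saline as the control injury, with decellularized extracellular matrix (ECM), or with polyethylene (PE) powder. Injured muscle was taken on day 21. No day or age at collection is given for the uninjured mice, so age may differ between uninjured and injured groups. The 24 libraries are described as independent samples, and no group carried a transgene or a deletion. The flash-frozen tissue held muscle, wound and implant together, so a higher value can come from more collagen-making cells or from more RNA in each, which bulk RNA cannot tell apart.

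Collagens are trimers of chains wound into a triple helix. Fibrillar collagens pack into the cables that give tendon, fascia and scar their strength, and type 1 and type 3 make up most of the matrix that fibroblasts lay down in a wound. Type 4 forms the sheet-like network of the basement membrane that wraps each muscle fibre and each capillary. Type 6 makes the beaded filaments between that sheet and the fibrils. Other types sit on the surface of fibrils, span cell membranes, or end in fragments that act on vessels. Around an implanted solid such as PE, fibroblasts commonly build a collagen capsule, while decellularized ECM brings collagen protein, but no living cells, into the wound.

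The promoters of 3 fibrillar genes that were higher in PE-treated B6 muscle are shown because these genes were called in the same comparison and carry different sequences before their starts. Each run is the 250 bases before the start of the gene's canonical transcript (GENCODE release 39 on GRCm39, the build the authors used), written 5′ to 3′ on the gene's own strand. Capitals mark CCAAT and GGGCGG, the letters bound by NF-Y and by Sp1 family factors, on either strand (ATTGG and CCGCCC on the other). These are reference letters of the C57BL/6J genome, and the MRL alleles were not analysed here.
Col1a1, chr11:94826800-94827049, plus strand: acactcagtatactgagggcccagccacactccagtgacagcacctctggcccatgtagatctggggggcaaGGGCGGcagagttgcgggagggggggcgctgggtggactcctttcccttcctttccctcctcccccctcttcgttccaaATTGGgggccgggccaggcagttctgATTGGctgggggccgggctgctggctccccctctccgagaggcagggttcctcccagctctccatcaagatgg
Col3a1, chr1:45350448-45350697, plus strand: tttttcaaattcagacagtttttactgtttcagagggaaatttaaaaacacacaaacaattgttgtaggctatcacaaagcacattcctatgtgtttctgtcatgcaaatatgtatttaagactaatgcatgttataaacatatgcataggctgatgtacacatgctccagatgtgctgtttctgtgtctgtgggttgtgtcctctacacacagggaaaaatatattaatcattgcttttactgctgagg
Col5a2, chr1:45542443-45542692, minus strand: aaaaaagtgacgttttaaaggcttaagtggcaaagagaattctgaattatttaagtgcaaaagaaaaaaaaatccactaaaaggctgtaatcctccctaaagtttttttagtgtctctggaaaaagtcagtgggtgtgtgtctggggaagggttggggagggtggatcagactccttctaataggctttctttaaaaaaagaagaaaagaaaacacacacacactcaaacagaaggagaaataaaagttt
The Col1a1 window held 2 CCAAT and 1 GGGCGG, and those of Col3a1 and Col5a2 held neither. Its bases were 64.8% G or C, against 35.2% for Col3a1 and 36.0% for Col5a2. CCAAT was present in 14 of the 42 collagen promoters (33.3%) and in 35.2% of the 13126 promoters that could be matched to the table. GGGCGG was present in 20 of 42 (47.6%) and in 46.9% of all. Among the 9 fibrillar promoters GGGCGG was present in 7 (77.8%) and CCAAT in 4 (44.4%), so Col3a1 and Col5a2 were the exceptions for GGGCGG. The other called fibrillar genes, Col1a2 and Col5a1, held 3 GGGCGG each. A match is only a run of letters and not a measured binding site.

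Several chain genes lie side by side in the genome. Col3a1 and Col5a2 end towards each other on chromosome 1, 16713 bases apart. The paired type 4 genes start towards each other: Col4a1 (chr8:11248423-11362826, minus strand) and Col4a2 (chr8:11362471-11499287, plus strand) overlap at their first exons, Col4a4 and Col4a3 overlap on chromosome 1, and the starts of Col4a6 and Col4a5 lie 1282 bases apart on chromosome X. Reads over an overlap cannot be assigned without strand, a limit for the first exons of these pairs. Shared sequence on the transcript strand was small: 4.04% of the 31-base words of Col6a5 and 4.29% of those of Col6a6 also occurred in another gene, the other of the pair among them. Words shared across opposite strands, as in the overlaps above, were not counted. In any other chain the share was 1.69% or less, the highest being that of Col5a2, whose words were shared with genes that encode no collagen.

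Values are log2 CPM, and a difference of 1 is a doubling. A gene was called changed where limma's Benjamini-Hochberg adjusted p, over all 14159 genes, was below 0.05. Per-library depth is not kept in the values, but a count of 0 sits at -3.65, which was reached by Col2a1 in 1 library only. Muscle fibre genes were high throughout, with a summed level of 8 markers from 26688 to 167844 CPM, so the tissue label held. Of the 24 libraries, 3 stood furthest from their own groups over the collagens. MRL PE replicate 2 was higher than its group mean by 0.87 on average, B6 saline replicate 2 differed from its group by -0.82, and MRL saline replicate 1 was higher by 0.68. MRL PE replicate 2 also had the lowest correlation with its group over all genes (r = 0.81). Collagen results that rest on these libraries are given with and without them.

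Read per length of transcript, type 3 and type 1 chains led in every group shown here. In uninjured B6 muscle Col3a1 stood at 84.5 ± 13.7 CPM per kilobase (SD, n = 3), Col1a2 at 67.8 ± 13.9 and Col1a1 at 56.7 ± 13.4. Their ranges overlapped between neighbours in this order. Col4a1, the main basement membrane chain, followed at 44.8 ± 0.691 and Col6a1 at 40.8 ± 10.2. Uninjured MRL muscle had the same first 5, with Col3a1 at 100.4 ± 29.0, Col4a1 at 37.2 ± 12.1 and Col6a1 at 36.5 ± 6.83 CPM per kilobase. In PE-treated B6 muscle Col3a1 stood at 519.6 ± 231.6, Col1a1 at 309.7 ± 77.4 and Col1a2 at 302.2 ± 72.9 CPM per kilobase, while Col4a1 stood at 39.2 ± 1.63, in the sixth place. Type 4 chains thus held 14.9 to 21.0% of all collagen CPM per kilobase in uninjured B6 muscle and 3.17 to 5.74% under PE.

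Summed collagen CPM was higher in 8 of 9 injured B6 libraries than in every uninjured one, and the fibrillar class carried most of it. All 42 collagens summed to 2351 to 3054 CPM in uninjured B6 muscle, and the exception was B6 saline replicate 2 at 2805 CPM. The 9 fibrillar genes summed to 1401, 1208 and 1721 CPM in the 3 uninjured B6 libraries. The sums were 3812, 1744 and 4271 CPM after saline, 2921, 2433 and 3841 CPM after ECM, and 5835, 9543 and 5511 CPM after PE. In this class every injured B6 library lay above every uninjured one, saline replicate 2 only just, and every PE library above every saline and ECM library. In MRL the sums were 1464, 1799 and 1011 CPM in uninjured muscle, 5645, 1274 and 1462 CPM after saline, and 1563, 1815 and 3009 CPM after ECM. With PE they were 2640, 17149 and 1947 CPM, so that 1 library stood far above the other 2. Those 2 also lay above the uninjured range, the one at 1947 CPM only narrowly.

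**Figure D1:**
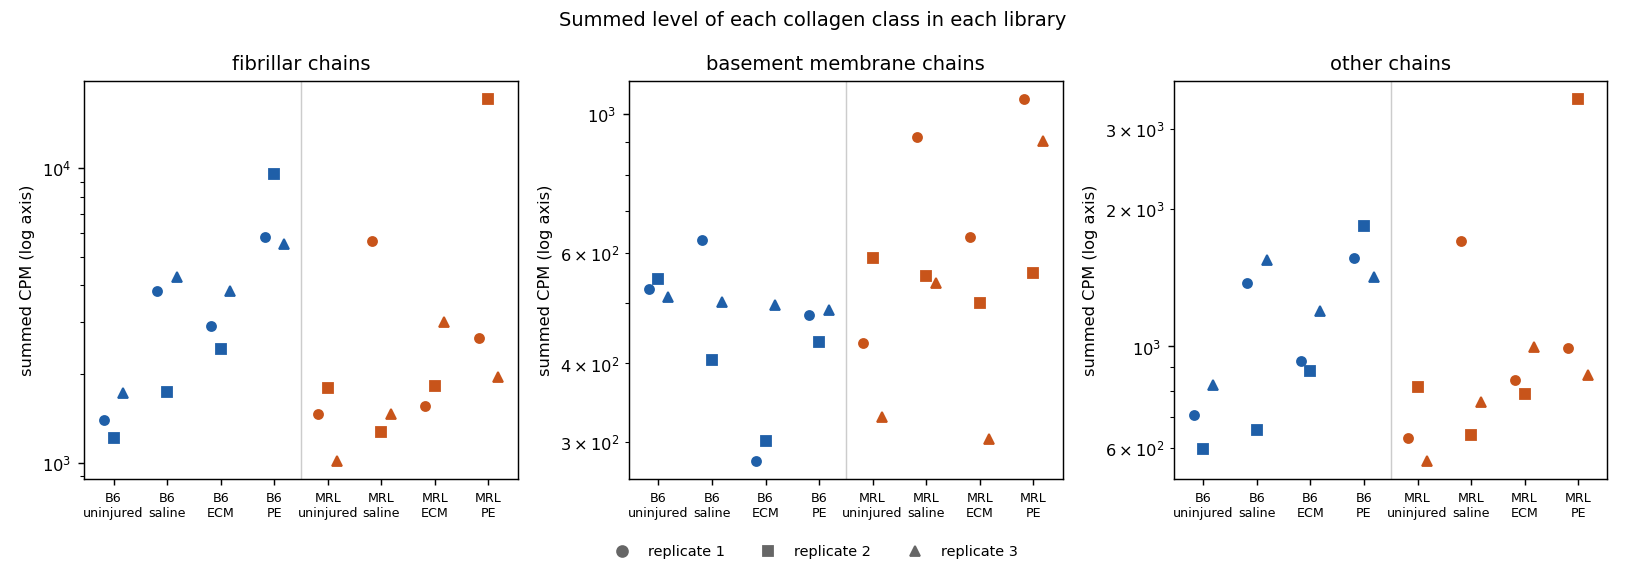
Summed CPM of the 9 fibrillar, 6 basement membrane and 27 other collagen genes in each library, on a log axis, for the 4 treatments of B6 and MRL mice. Dots are libraries with a marker for the replicate number. In B6 the fibrillar sum was 1208 to 1721 CPM in uninjured and 5511 to 9543 CPM in PE-treated muscle, while the basement membrane sum was 510 to 546 and 433 to 487 CPM.

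The comparison of PE with no injury in B6 holds the wound and the implant together and cannot tell them apart. PE against saline, where both groups were wounded, is given further below. Of the 42 collagens, 11 were called, all of them higher (26.2%), where 24.8% of all genes were called in either direction and 14.7% were called higher. The median log2 fold change was 1.04 over the 42 and 0.02 over all genes. By class, 5 of 9 fibrillar, 0 of 6 type 4 and 6 of 27 other chains were called. Groups did not overlap for 29 collagens, with PE higher for 24 (57.1%) and lower for 5 (11.9%), against 27% and 24.1% of all genes. Scaling the libraries to equal totals in place of the deposited scaling moved the median of all genes by 0.41 and the collagen count to 18, where 30.4% of all genes were called, with 3753 genes higher and 551 lower, against 2086 and 1422 on the deposited scale and 1811 and 2019 with quantile normalization. Without B6 PE replicate 2 no collagen was called, where 3.76% of all genes were. Without B6 PE replicate 1 or uninjured replicate 3 there were 3, where 14.7% and 12.1% of all genes were called, and without uninjured replicate 1 or 2 there were 2, where 11.9% and 18.2% were.

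Col3a1, the type 3 chain, stood at 8.94, 8.59 and 9.06 log2 CPM in uninjured B6 muscle and at 11.22, 12.09 and 10.92 with PE. It was 5.83-fold higher (log2 fold change 2.54 ± 0.65 SE, n = 3 per group, limma adjusted p = 0.0119). Without PE replicate 2 the log2 fold change was 2.20 (adjusted p = 0.0808). Col1a1, the major type 1 chain, rose from 8.24, 8.12 and 8.74 to 10.57, 11.21 and 10.67, a 5.45-fold difference (2.45 ± 0.73, adjusted p = 0.0243). Its partner chain Col1a2 rose from 8.43, 8.23 and 8.80 to 10.42, 11.02 and 10.47 (2.15 ± 0.66, adjusted p = 0.0270). For all 3 genes the lowest PE library was above the highest uninjured one by more than 1 log2 unit.

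Type 5 chains are built into type 1 fibrils and limit their width. Col5a2 stood at 6.08, 5.81 and 6.08 in uninjured and 7.58, 8.05 and 7.49 log2 CPM in PE-treated B6 muscle (1.71 ± 0.54, adjusted p = 0.0306). Col5a1 stood at 6.32, 6.15 and 6.69 and at 7.53, 8.03 and 7.39 (1.26 ± 0.44, adjusted p = 0.0455). The remaining chain of the type, Col5a3, differed by 0.65 (adjusted p = 0.177). Among the scarcer fibrillar chains that are best known from cartilage, Col11a1 was variable, with 1.73, 3.11 and 3.33 before and 3.69, 3.19 and 4.44 log2 CPM with PE (1.05, adjusted p = 0.468). Col11a2 differed by 0.60 and Col2a1 by -0.54, neither of them called.

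**Figure D2:**
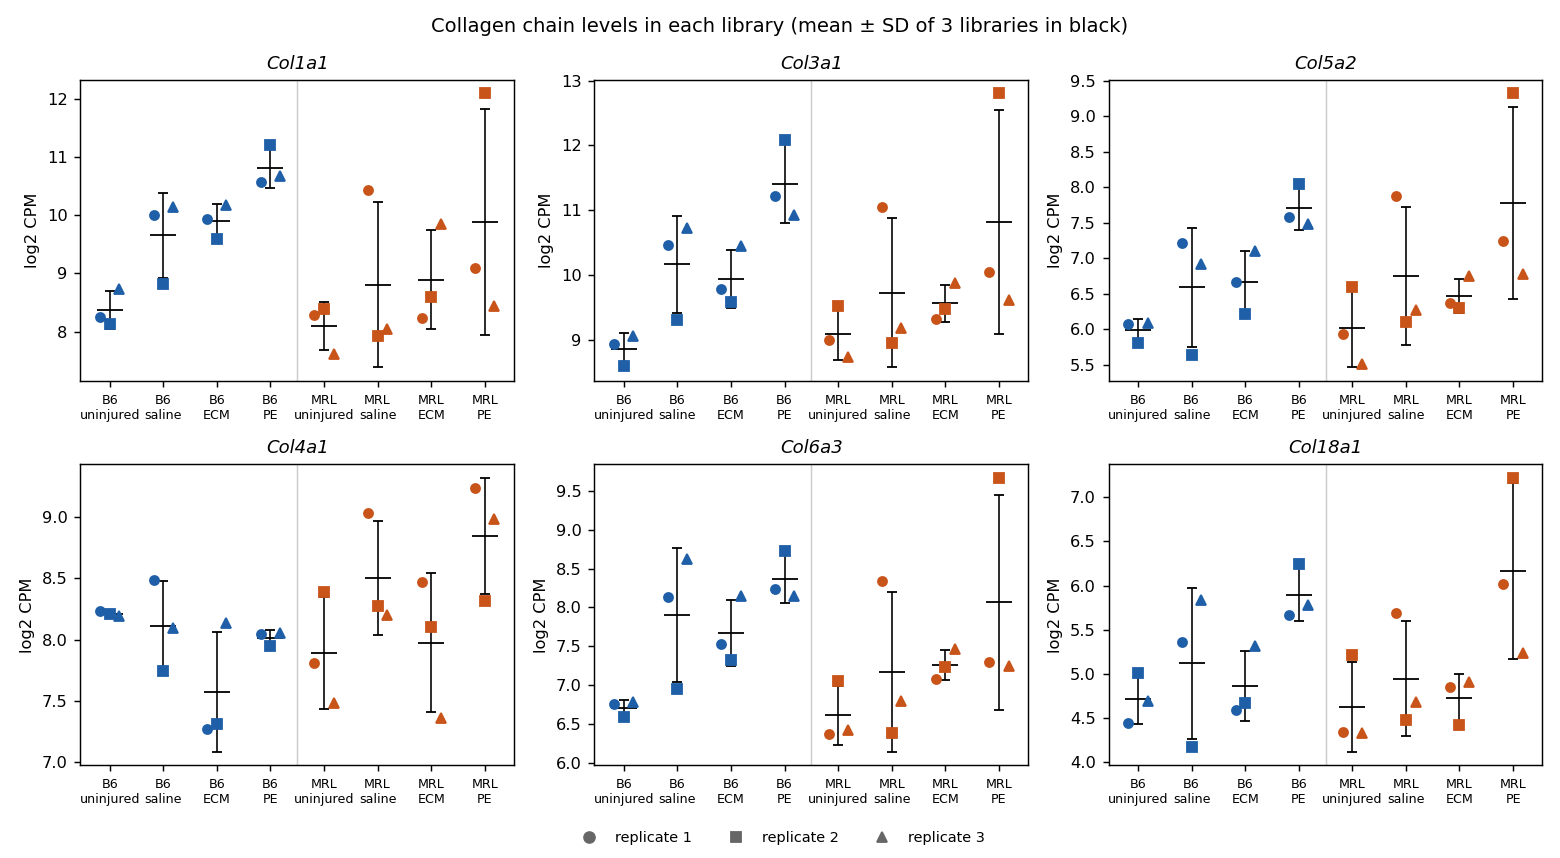
log2 CPM of Col1a1, Col3a1, Col5a2, Col4a1, Col6a3 and Col18a1 in each of the 24 libraries by group, with dots for libraries and a black mean with its SD (n = 3). The 3 B6 PE libraries of Col3a1 lie from 10.92 to 12.09 and its uninjured ones from 8.59 to 9.06, while MRL PE replicate 2 stands alone at 12.80.

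Col4a1 and Col4a2 wind together into the common type 4 trimer of every basement membrane, and neither rose in B6. Col4a1 stood at 8.23, 8.21 and 8.19 log2 CPM in uninjured muscle and at 8.05, 7.95 and 8.05 with PE (-0.19 ± 0.32, adjusted p = 0.667). Col4a2 stood at 7.75, 7.91 and 7.71 and at 7.63, 7.42 and 7.67 (-0.22, adjusted p = 0.599). The groups of each did not overlap, and the sign of both depended on the scaling: with libraries scaled to equal totals Col4a1 differed by 0.22 and Col4a2 by 0.19, and with quantile normalization by 0.10 and 0.02. The median of the 6 type 4 genes was -0.21, 0.21 with equal totals and 0.06 with quantile normalization, while the fibrillar median was 1.26, 1.67 and 1.47 under the same 3 scalings. Endothelial marker genes, whose cells lie on type 4 collagen, summed to 370 to 429 CPM in uninjured and 246 to 292 CPM in PE-treated B6 muscle, and pericyte and smooth muscle markers to 338 to 438 and 161 to 244 CPM. Their part in the type 4 values was not tested.

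The minor type 4 chains, which replace the common ones in kidney, lung and eye, were scarce. Col4a3 stood at 0.29, 1.07 and -0.08 log2 CPM in uninjured and 1.38, 2.37 and 2.02 in PE-treated B6 muscle (1.50, adjusted p = 0.0689). Its pair partner Col4a4 stood at 0.76, 0.62 and 0.60 and at 0.49, 0.21 and 0.55 (-0.24, adjusted p = 0.654). Hence Col4a3 libraries lay higher and Col4a4 libraries lower with PE, without overlap and without a call. Col4a5 differed by 0.80 and Col4a6 by -0.29.

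All 5 type 6 chains had higher means with PE in B6, and 2 were called, where 24.8% of all genes were. Col6a3, the long chain of the common type 6 trimer, stood at 6.76, 6.59 and 6.78 log2 CPM in uninjured muscle and at 8.24, 8.73 and 8.15 with PE (1.67 ± 0.55, adjusted p = 0.0354). Col6a1 stood at 7.40, 6.97 and 7.70 and at 8.38, 8.61 and 8.16 (1.03, adjusted p = 0.0839), and Col6a2 differed by 1.09 (adjusted p = 0.0748). The alternative chain Col6a6 stood at 3.81, 2.17 and 3.48 and at 4.64, 4.89 and 4.33 (1.47 ± 0.39, adjusted p = 0.0153). The last of the type, Col6a5, differed by 2.85 at a low and scattered level, with an adjusted p of 0.0778.

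The fibril-associated chains, which coat fibrils with interrupted helices, gave 3 calls among 9, in a comparison that called 24.8% of all genes. Col14a1 stood at 5.25, 4.28 and 5.10 log2 CPM in uninjured and at 6.65, 7.31 and 6.44 in PE-treated B6 muscle (1.92 ± 0.63, adjusted p = 0.0349). Col16a1 stood at 3.19, 3.02 and 3.62 and at 5.28, 5.76 and 5.47 (2.23 ± 0.68, adjusted p = 0.0257). Col19a1 showed the widest gap, from -1.05, -0.74 and -1.08 to 3.04, 1.79 and 2.63, a 10.9-fold difference at a low level (3.44 ± 0.96, adjusted p = 0.0176). In its case saline and ECM libraries were also high: 3.62, -0.15 and 3.87 after saline, and 1.67, 3.19 and 2.83 after ECM. Markers of regenerating fibres moved with it, with summed levels of 906, 21.2 and 1012 CPM after saline, 133, 377 and 337 CPM after ECM, 328, 138 and 369 CPM with PE and 12.8 to 22 CPM in uninjured B6 muscle, and their part was not tested. Col12a1, a chain of tendon and fascia, differed by 1.78 (adjusted p = 0.141). Col22a1, known from the junction of muscle and tendon, differed by -0.71 with adjusted p = 0.455. Tendon marker genes summed to 186 to 358 CPM in uninjured and 333 to 1045 CPM in PE-treated B6 muscle, and their part in these values was not tested.

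Col24a1, a fibrillar-like chain that the class rule counts among the others, was the last of the 11. It stood at 2.32, 2.85 and 2.51 log2 CPM in uninjured and at 4.58, 4.04 and 3.90 in PE-treated B6 muscle (1.61 ± 0.54, adjusted p = 0.0372). The multiplexins Col15a1 and Col18a1, basement membrane chains whose ends are cut to restin and endostatin, differed by 0.88 (adjusted p = 0.0513) and 1.18 (adjusted p = 0.0605). Col15a1 stood at 6.56, 6.06 and 6.12 before and 7.13, 7.15 and 7.10 with PE, without overlap. Of the network chains of type 8, which occur in vessel walls, Col8a1 stood at 3.40, 2.74 and 3.11 and at 5.15, 5.10 and 4.94 (1.98, adjusted p = 0.0526), and Col8a2 differed by 1.69. Among the 4 membrane-spanning chains Col23a1 differed by 1.94 (adjusted p = 0.0550), Col25a1 by 1.25, Col13a1 by 0.73 and Col17a1 by 0.25, none of them called. Col13a1, which sits at the neuromuscular junction, stood at 0.03, 0.70 and 0.75 and at 1.62, 0.59 and 1.47, with overlap. Of the chains not yet named, Col7a1, Col9a3 and Col27a1 differed by 0.32 to 0.89 and Col9a1, Col9a2, Col20a1 and Col26a1 by -0.53 to -0.12, and Col28a1 differed by -0.29.

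**Figure D3:**
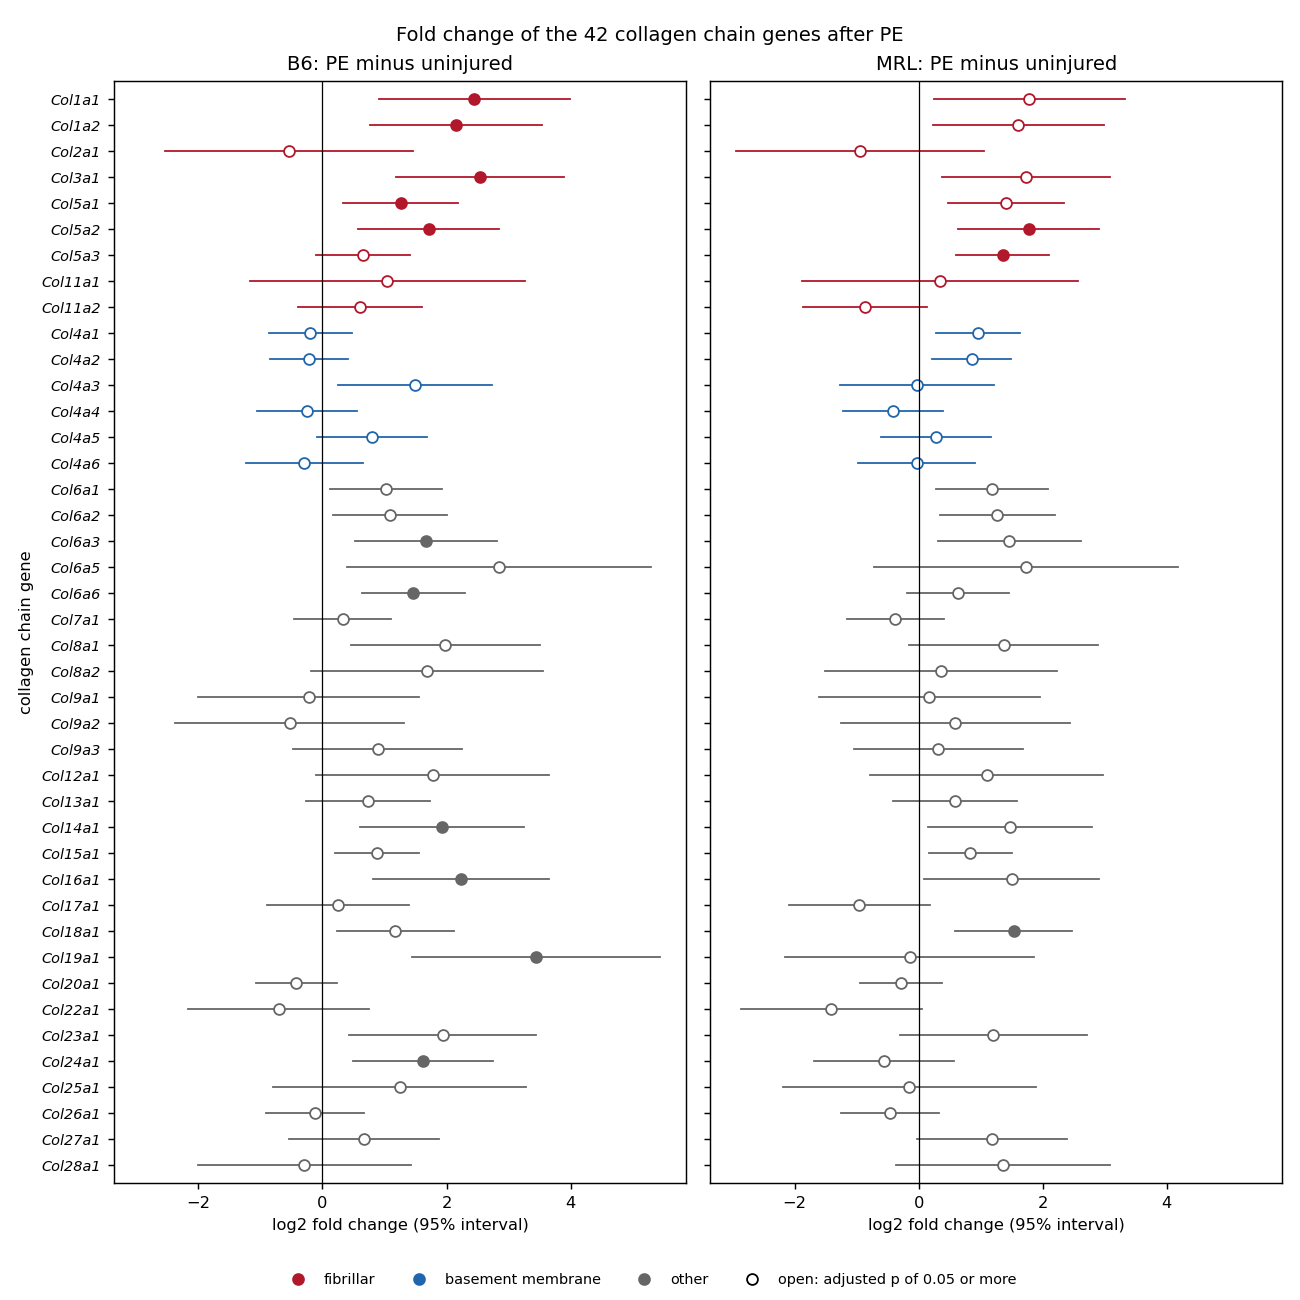
log2 fold change of each of the 42 collagen genes, PE minus uninjured, in B6 and in MRL, with 95% intervals and filled symbols for called genes. Filled symbols lie on the higher side in both strains, 11 in B6 and 3 in MRL. The common type 4 chains sit near 0 in B6 on the deposited scale, and their sign there turned with the scaling.

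Other cell types moved with PE as well. The sum of 5 macrophage marker genes was 104 to 134 CPM in uninjured B6 muscle and 1306 to 4783 CPM with PE, that of 5 myofibroblast markers 113 to 175 and 266 to 400 CPM, and that of 8 fibroblast markers 1570 to 1918 and 1110 to 1461 CPM. Summed muscle fibre markers were 121394 to 156360 and 43387 to 95652 CPM. B6 PE replicate 2, without which no collagen was called, held both the macrophage sum of 4783 CPM and the muscle fibre sum of 43387 CPM. Replicates 1 and 3 stood at 2583 and 1306 CPM for macrophage markers and at 84997 and 95652 CPM for muscle fibre markers. None of these markers was at 0 in any library. Their part in the collagen values was not tested.

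Saline and ECM raised the means of most chains in B6 without a call. Against uninjured muscle 0 of 42 collagens were called by limma after saline, where 0% of all genes were, and 11 had an unadjusted p below 0.05, as 12.4% of all genes did. The median was 0.71, with 33 of 42 higher. After ECM 0 were called, where 0.424% of all genes were, 8 had an unadjusted p below 0.05, as 16.8% of all genes did, and the median was 0.55 with 35 higher. Col1a1 stood at 10.01, 8.81 and 10.15 log2 CPM after saline and at 9.93, 9.59 and 10.17 after ECM, all above the uninjured 8.74 at most. B6 saline replicate 2 was the lowest of its group for Col1a1, Col3a1, Col5a2 and Col6a3. Without it 3.22% of all genes were called after saline, and 4 collagens were, Col19a1 (4.70, adjusted p = 0.00884), Col23a1, Col4a5 and Col7a1, and the fibrillar median went from 0.57 to 1.07.

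The 3 injured B6 groups were also set against each other, each comparison sharing a group with those above. Between ECM and saline 0 collagens were called by limma, where 0.0283% of all genes were, and 4 had an unadjusted p below 0.05, as 3.99% of all genes did. Between PE and ECM 0 were called, where 0.226% of all genes were, and 9 had an unadjusted p below 0.05, as 20.6% of all genes did. Between PE and saline 1 was called, where 5.97% of all genes were. It was Col20a1, a scarce fibril-associated chain, lower at 1.78, 1.89 and 1.82 log2 CPM with PE than at 2.52, 2.54 and 3.81 with saline (-1.13 ± 0.31, adjusted p = 0.0410). It was called in none of the fits that left out 1 library. Col3a1 was higher with PE than with saline by 1.24 in its means, with a 95% interval from -0.11 to 2.60 (adjusted p = 0.235).

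In MRL the PE response was uneven between animals. Against uninjured MRL muscle 3 of 42 collagens were called, all higher (7.14%), where 9.73% of all genes were called and 5.95% were called higher. The median log2 fold change was 0.74 over the 42 and 0.07 over all genes. Groups did not overlap for 14 higher (33.3%) and 3 lower collagens (7.14%), against 18.9% and 20% of all genes. The 3 lower were Col11a2, Col17a1 and Col26a1. The 3 calls were Col5a3, Col18a1 and Col5a2. Equal totals moved the median of all genes by 0.40 and the collagen count to 9, where 14.7% of all genes were called, with 1951 genes higher and 124 lower, against 842 and 535 on the deposited scale. Quantile normalization left 0 collagens called, and so did leaving out uninjured replicate 1 or 3. The replicate number as a block left 0 as well.

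Col5a3 stood at 6.19, 6.77 and 6.16 log2 CPM in uninjured and at 7.54, 8.50 and 7.13 in PE-treated MRL muscle (1.35 ± 0.36, adjusted p = 0.0448). Col18a1 stood at 4.34, 5.22 and 4.33 and at 6.02, 7.22 and 5.24 (1.53 ± 0.45, adjusted p = 0.0468). Col5a2 stood at 5.93, 6.59 and 5.51 and at 7.24, 9.32 and 6.78 (1.77 ± 0.54, adjusted p = 0.0483). In each gene replicate 2 was the highest, and the groups did not overlap, narrowly so for Col18a1 with 5.24 above 5.22. Without replicate 2 the differences were 0.96, 1.00 and 1.00, and no collagen was called.

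Replicate 2 also set the MRL values of types 1 and 3. Col1a1 stood at 8.28, 8.38 and 7.62 log2 CPM in uninjured MRL muscle and at 9.09, 12.10 and 8.45 with PE (1.79 ± 0.73, adjusted p = 0.0941), and without that library the difference was 0.68. Col3a1 stood at 9.004, 9.53 and 8.73 and at 10.05, 12.80 and 9.62 (1.74, adjusted p = 0.0728), and without it at a difference of 0.75. The library that was high in fibrillar chains was the same that was high in macrophage markers, with a summed 4092 CPM against 170 and 182 CPM in the other PE libraries, and low in muscle fibre markers at 26688 CPM. The part of these cells in the result was not tested. Leaving out replicate 3 in place of replicate 2 gave 14 called collagens, where 24.2% of all genes were called, and leaving out replicate 1 gave 8, where 20.3% were.

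The common type 4 chains Col4a1 and Col4a2 showed another order of the same animals. Col4a1 stood at 7.81, 8.39 and 7.48 log2 CPM in uninjured MRL muscle and at 9.24, 8.32 and 8.98 with PE, so replicates 1 and 3 were high and replicate 2 lay within the uninjured range. Col4a2 followed, from 7.60, 7.91 and 7.13 to 8.78, 7.83 and 8.59. The differences were 0.95 (adjusted p = 0.0572) and 0.85 (adjusted p = 0.0649). With libraries scaled to equal totals the Col4a1 difference was 1.36 (adjusted p = 0.0340). The minor chains did not share that order: Col4a3 was highest in replicate 2 at 1.51 log2 CPM, against -0.15 and 0.95, and Col4a5 stood at 2.84, 2.91 and 3.04. The median of the 6 type 4 genes was 0.12, and it was 0.51 with equal totals and -0.27 with quantile normalization, so it has no settled sign. Adipocyte markers summed to 3850, 332 and 2529 CPM in PE replicates 1, 2 and 3 of MRL, in the order of Col4a1. In uninjured MRL replicates 1, 2 and 3 they summed to 203, 1823 and 504 CPM, not in the order of Col4a1. They summed to 133 to 272 CPM in PE-treated B6 muscle. Fibroblast markers summed to 2920, 1603 and 2278 CPM and endothelial markers to 417, 297 and 358 CPM in MRL PE replicates 1, 2 and 3, in the order of Col4a1. Muscle fibre markers and pericyte and smooth muscle markers followed that order too. Myofibroblast, regenerating fibre, Schwann cell, macrophage, tendon and neuromuscular junction markers did not. The part of these cells in the type 4 values was not tested.

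Saline and ECM gave no collagen call in MRL. Against uninjured muscle 0 of 42 were called by limma after saline, where 0% of all genes were, and after ECM, where 0.0141% were. None had an unadjusted p below 0.05 in either, where 3.1% and 3.8% of all genes did. The medians were 0.52 and 0.32. Col1a1 stood at 10.44, 7.92 and 8.05 log2 CPM after saline, and without replicate 1 its difference from uninjured muscle was -0.11 on the log2 scale. Between ECM and saline 0 were called, where 0.00706% of all genes were, and none had an unadjusted p below 0.05, where 3.55% of all genes did. PE against saline and PE against ECM gave 0 calls each, where 0% of all genes were called, with 5 and 11 collagens at an unadjusted p below 0.05, where 23.3% and 28.4% of all genes were.

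The ratio of a fibrillar to a basement membrane chain within a library does not change when a library is multiplied by a scaling factor. It carries the lengths of both transcripts, so only its change between libraries is read. The log2 difference of Col1a1 and Col4a1 was -0.08, 0.01 and 0.55 in uninjured B6 muscle, from lowest to highest. It was 1.07 to 2.06 after saline, 2.04 to 2.66 after ECM and 2.52 to 3.26 after PE. In MRL it was -0.003 to 0.48 without injury, -0.35, -0.15 and 1.40 after saline, -0.24, 0.49 and 2.50 after ECM, and -0.54, -0.14 and 3.78 after PE. All 9 injured B6 libraries lay above the uninjured B6 ones. In MRL, saline replicate 1, ECM replicates 2 and 3 and PE replicate 2 lay above the uninjured MRL ones, ECM replicate 2 only just (0.49 against 0.48). The other injured MRL libraries lay below every uninjured MRL one.

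Some chains of the same trimer kept close ratios. Over all 24 libraries the log2 difference of Col4a1 and Col4a2 spanned 0.33, while the genes themselves spanned 1.97 and 1.95. That of Col6a1 and Col6a2 spanned 0.34, where the genes spanned 2.75 and 2.90, and that of Col1a1 and Col1a2 spanned 0.80, where the genes spanned 4.48 and 4.32. Col1a1 exceeded Col1a2 by 0.06 to 0.38 in the 9 injured B6 libraries and differed from it by -0.42 to 0.19 in the 9 injured MRL libraries. The difference of Col5a1 and Col5a2 spanned 1.05, not far below the 1.31 of Col1a1 and Col3a1, which belong to different trimers. The pair Col4a5 and Col4a6 spanned 2.84, more than either gene alone (2.47 and 1.94), and the scarce pair Col4a3 and Col4a4 spanned 5.45. The latter difference was 1.29 to 3.72 in ECM-treated B6 and -1.09 to 0.54 in ECM-treated MRL muscle.

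**Figure D4:**
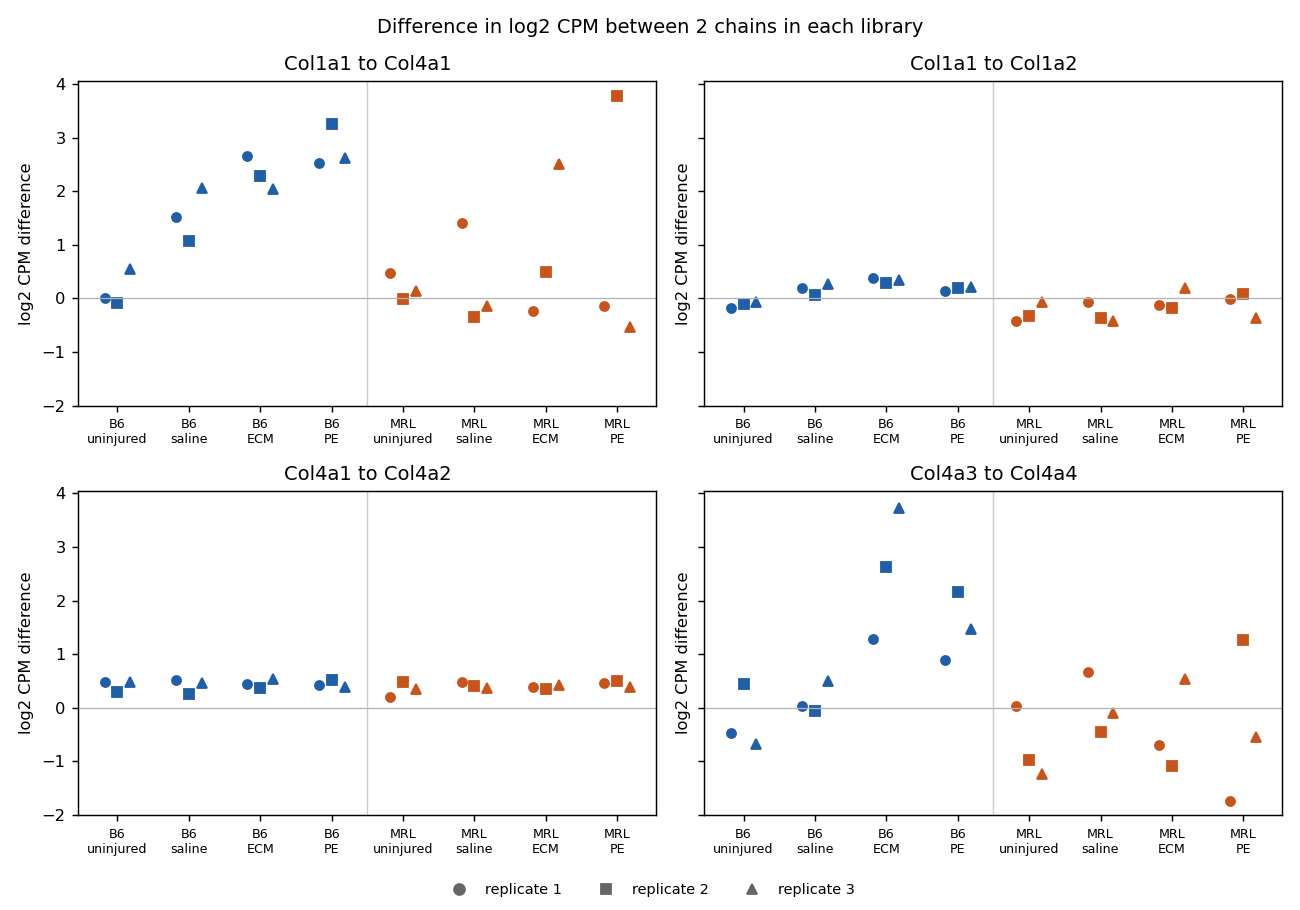
log2 difference within each library between Col1a1 and Col4a1, Col1a1 and Col1a2, Col4a1 and Col4a2, and Col4a3 and Col4a4, by group. Points are libraries. The first panel goes from -0.08 to 0.55 in uninjured B6 to 2.52 to 3.26 under PE, while 2 of the 3 MRL PE libraries stay at or below 0.

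Between the strains few collagens were called in any treatment. In uninjured muscle 1 of 42 was called, where 2.6% of all genes were. It was Col24a1, at 2.32, 2.85 and 2.51 log2 CPM in B6 and 4.05, 5.05 and 5.32 in MRL, a 4.74-fold difference (2.24 ± 0.54, adjusted p = 0.0258). The strains did not overlap. The call was lost without any 1 B6 library, without MRL replicate 2 or 3, and with equal totals. Col28a1, a chain of peripheral nerve, was lower in MRL in its means by 2.46 without a call (adjusted p = 0.173), with 1.08, 2.49 and 0.52 in B6 and -0.59, -0.96 and -1.73 in MRL. It was also lower in MRL without overlap after saline and after ECM, while the strains overlapped with PE. Reads of both strains were quantified against the C57BL/6J reference, and the effect of that on MRL values was not tested. Schwann cell markers summed to 33.6 to 414 CPM in uninjured B6 and 24.3 to 89.0 CPM in uninjured MRL muscle, and their part was not tested.

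After saline 0 collagens were called between the strains by limma, where 2.51% of all genes were, and 3 had an unadjusted p below 0.05, as 13.3% of all genes did. After ECM 1 was called, where 2.66% of all genes were. It was Col4a4, at 0.64, 0.14 and -0.60 log2 CPM in B6 and 1.74, 0.99 and 2.16 in MRL (1.57 ± 0.39, adjusted p = 0.0294), and it was lost without B6 replicate 2 or 3, without MRL replicate 1 or 3, in the fit of the compared groups only, and with genes under a mean log2 CPM of 1 left out. Groups did not overlap for 1 collagen higher in MRL (2.38%) and 6 lower (14.3%), against 12.9% and 12.8% of all genes. The 6 were Col11a1, Col12a1, Col23a1, Col28a1, Col4a6 and Col8a2.

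With PE 0 of 42 collagens were called between the strains by limma, where 3.35% of all genes were, and 6 had an unadjusted p below 0.05, as 19.1% of all genes did. Groups did not overlap for 2 higher in MRL (4.76%), Col4a1 and Col4a2, and 2 lower (4.76%), Col11a2 and Col25a1, against 9.89% and 7.59% of all genes. Col4a1 differed by 0.83 with a 95% interval from 0.16 to 1.50 (adjusted p = 0.160), and Col4a2 by 0.83 with an interval from 0.20 to 1.46 (adjusted p = 0.137). Both were higher in MRL under equal totals and quantile normalization as well. Col1a1 differed by -0.93, with an interval from -2.47 to 0.60 (adjusted p = 0.524). Col11a2 stood at 3.93, 3.42 and 4.28 log2 CPM in B6 and at 2.44, 2.15 and 2.63 in MRL (-1.47, adjusted p = 0.0953).

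The comparison changed when MRL PE replicate 2 was left out, an alternative that leaves 2 MRL libraries. Then 12 of 42 collagens were called, not far above the background, where 24.6% of all genes were, against 3.35% with the library kept. Lower in MRL were Col1a1 (-2.04, adjusted p = 0.0184), Col1a2 (-1.68), Col3a1 (-1.58), Col8a1 (-1.96), Col8a2 (-3.46), Col11a1 (-3.42), Col12a1 (-2.47), Col16a1 (-2.06) and Col28a1 (-2.18). Higher were Col4a1 (1.09, adjusted p = 0.0228), Col4a2 (1.11, adjusted p = 0.0124) and Col4a4 (1.13). The fibrillar median went from -0.66 to -1.46 and the type 4 median from 0.59 to 0.86. No label or methods text sets that library apart, and its values stay in the results above.

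**Figure D5:**
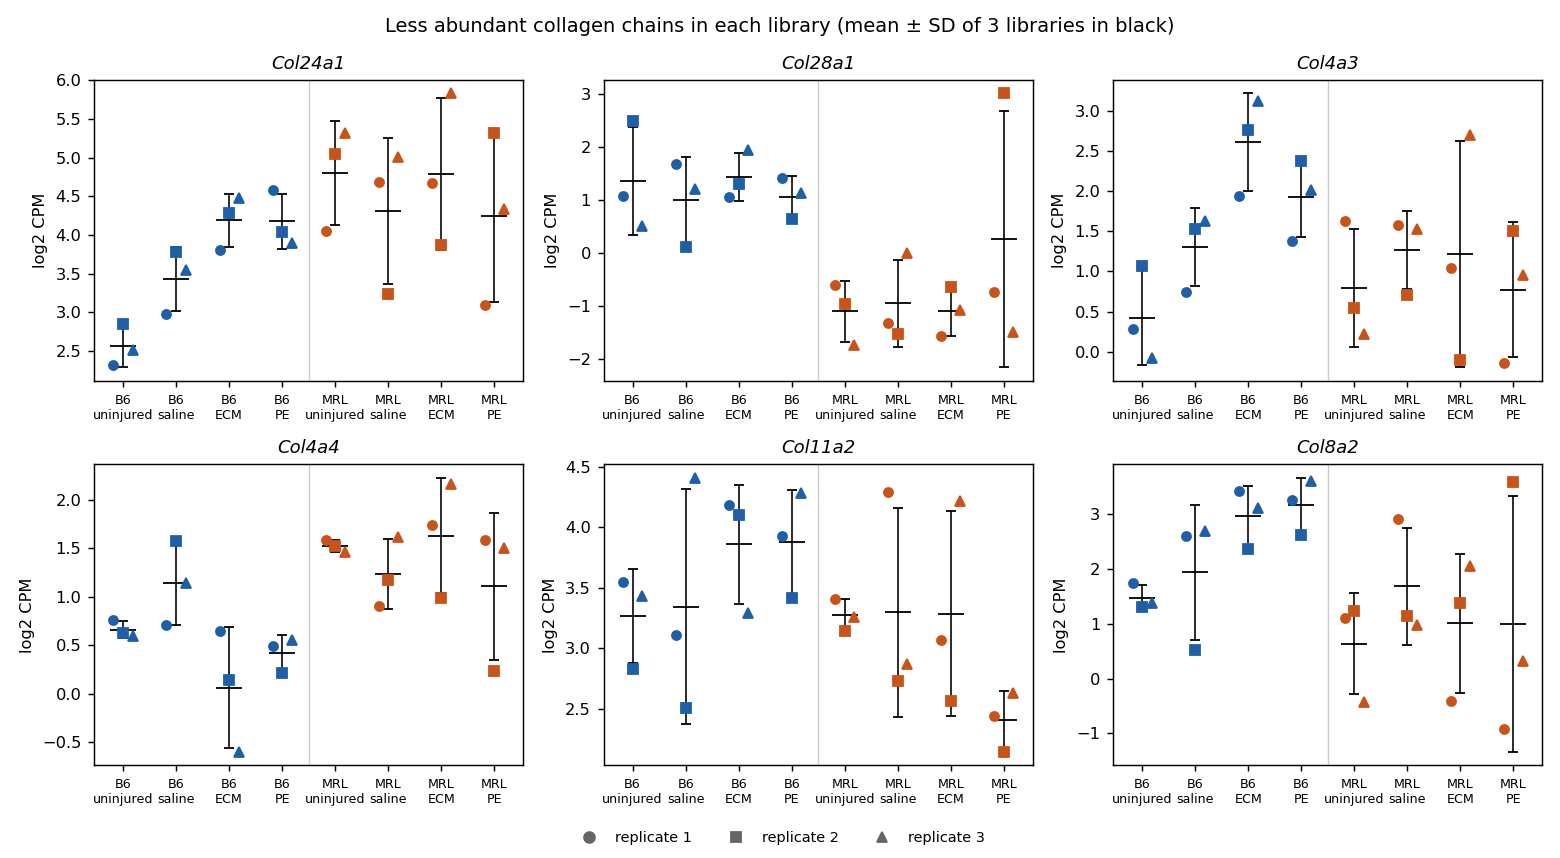
log2 CPM in each library by group for Col24a1, Col28a1, Col4a3, Col4a4, Col11a2 and Col8a2, with the mean and SD (n = 3). Col24a1 was 2.32 to 2.85 in uninjured B6 and 4.05 to 5.32 in uninjured MRL muscle, and Col4a4 was -0.60 to 0.64 in ECM-treated B6 and 0.99 to 2.16 in ECM-treated MRL muscle.

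Whether the strains responded differently was tested as an interaction. For saline against uninjured 0 collagens were called by limma, where 0% of all genes were, and 3 had an unadjusted p below 0.05, as 4.03% of all genes did. For ECM 0 were called, where 0.00706% of all genes were, and 2 had an unadjusted p below 0.05, as 3.62% of all genes did. For PE 0 were called, where 0.0212% of all genes were, and 5 had an unadjusted p below 0.05, as did 11.7% of all genes, a like share. The 5 were Col11a2 at -1.47, Col24a1 at -2.17 (adjusted p = 0.304), Col19a1 at -3.59 (adjusted p = 0.324), Col4a1 at 1.15 (adjusted p = 0.337) and Col4a2 at 1.07 (adjusted p = 0.339). For PE against ECM 0 were called, where 0% of all genes were. None had an unadjusted p below 0.05, where 3.69% of all genes did. Without MRL PE replicate 2 the PE interaction called Col24a1 (-2.70) and Col4a2 (1.36), where 9.56% of all genes were called.

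Fibrils also need enzymes that modify, fold, cut and cross-link the chains, and 32 of 38 such genes were in the table. In B6 with PE, 7 were higher and 2 lower against uninjured muscle, with a median of 0.73. That is 9 of 32 (28.1%), near the 24.8% of all genes called in this comparison. P4ha3, a subunit of the prolyl hydroxylase that stabilises the helix, differed by 4.07 ± 1.00 (adjusted p = 0.0105), Tll1, a protease that trims procollagen, by 1.05 ± 0.26 (adjusted p = 0.0111) and Crtap, a partner of prolyl hydroxylation, by 1.40 ± 0.39 (adjusted p = 0.0176). The lower genes were Colgalt2, a collagen galactosyltransferase, at -0.86 ± 0.25 (adjusted p = 0.0195) and Pxdn, the peroxidase that cross-links type 4 collagen, at -1.23 (adjusted p = 0.0284), the latter named after its value was seen. In MRL with PE, 8 of 32 were higher and 0 lower, where 9.73% of all genes were called, with a median of 0.79. The 32 genes summed to 1474, 2751 and 1319 CPM in MRL PE replicates 1, 2 and 3, and to 955 to 1196 CPM in uninjured MRL muscle. Whether the 8 calls hold without PE replicate 2 was not examined. Adamts2, which removes the amino end of procollagen, differed by 1.71 ± 0.32 (adjusted p = 0.0448), Serpinh1, the collagen chaperone HSP47, by 1.50 ± 0.35, Crtap by 1.57 ± 0.39 and the protease Adamts14 by 1.52 ± 0.40, each with the same adjusted p.

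Proteoglycans that bind to fibrils gave 1 call among 8 in B6 with PE, Lum (lumican) at 1.81 ± 0.54 (adjusted p = 0.0247), with a median of 1.33, in a comparison that called 24.8% of all genes. In MRL none was called and the median was 1.02. Of 10 collagen receptors in the table, 2 were higher and 1 lower in B6 with PE, again beside 24.8% of all genes called. Lair1, an inhibitory receptor of leukocytes, differed by 5.09 ± 1.03 (adjusted p = 0.00397), the endocytic receptor Mrc2 by 1.19 (adjusted p = 0.0467) and Itga1, the integrin chain that binds type 4 collagen, by -0.91 ± 0.29 (adjusted p = 0.0306). In MRL 1 was called, the fibrillar collagen receptor Ddr2, at 0.93 ± 0.22 (adjusted p = 0.0448), beside 9.73% of all genes called. The 10 receptors summed to 429, 700 and 450 CPM in MRL PE replicates 1, 2 and 3, and the Ddr2 call was not examined without replicate 2. Between the strains with PE, Pcolce2, an enhancer of procollagen cleavage, was higher in MRL by 1.99 ± 0.47 (adjusted p = 0.0204), where 3.35% of all genes were called. Its difference without MRL PE replicate 2 was not examined.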

How the data were processed

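Whole quadriceps RNA was sequenced by the study as 24 paired-end, polyA-selected libraries, 3 for each of 8 groups assigned from the sample labels. The authors quantified reads with kallisto against Ensembl mouse cDNA (GRCm39), summed them to genes with tximport (lengthScaledTPM), kept genes above 1 CPM in at least 3 libraries, scaled by TMM and deposited log2 CPM with a prior count of 2. The deposited values keep no depth per library. The study lists reads per library separately, with the fewest in B6 PE replicate 2, and those numbers were not used here. The offset of a count of 0 corresponds to a mean effective library size of 25149678 counts, at which 3 counts equal 0.119 CPM. TMM sets the scale by the bulk of genes, so values are relative. All 24 columns were mapped to samples, and the 1 entry that had no gene symbol was dropped.

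The deposited log2 CPM of 14159 genes were fitted with limma 3.58.1 (R 4.3.3): 1 mean per group over 24 libraries, a trended prior variance, 16 contrasts of 2 groups and 4 interactions, with Benjamini-Hochberg adjustment within each. The script was tested on simulated data. An exact permutation test of 3 against 3 cannot go below a 2-sided p of 0.1, so single values were compared through this fit. Levels per kilobase and promoters used GENCODE release 39 on GRCm39 (Python 3.11.15, pandas 2.3.3), and figures matplotlib 3.10.9. Named genes are all collagens, with values per library for a fixed list and for called members, and up to 4 called genes of smallest p from each other list. The members, lists and tests were chosen with earlier results of these data known. Alternatives covered scale, filter, normalization, library weights, samples in the fit, prior variance, a replicate block and each library left out. Replicate numbers come from sample titles. Deviations of same-numbered libraries all correlated above 0.1 only between MRL PE and B6 PE (r = 0.105, 0.532 and 0.439, the first only just), where the block called 0 collagens, as did the fit without it.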

Additional observations from a re-analysis of the deposited data

How the results depend on the processing

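Over the 20 comparisons, 253 of the recomputed counts of called collagens stayed within 1.5 times their value and 71 did not. The cause of each shift was not tested. Library weights moved most counts, but the REML estimate did not converge, with weights from 0.057 (MRL PE replicate 2) to 56.3 (B6 PE replicate 1). A gene-by-gene estimate (0.0939 to 5.93) was added after seeing the data. With the former and then the latter, B6 saline, ECM and PE against uninjured gave 25, 11 and 29, then 11, 10 and 25 calls. B6 PE against saline and against ECM gave 26 and 17, then 6 and 13, and B6 ECM against saline gave 14 with the former. MRL PE against saline and against ECM gave 6 and 3 with both, and MRL PE against uninjured 5 with the latter. Between strains, uninjured, saline, ECM and PE muscle gave 2, 26, 12 and 27, then 2, 9, 10 and 23. The strain difference in response gave 5 for saline and 13 for PE, then 7 for PE. Equal totals gave 18 for B6 PE against uninjured, 0 against saline, 9 for MRL PE against uninjured, 1 against ECM and 0 between uninjured strains. With only the compared groups, B6 ECM and PE against uninjured gave 12 and 23, B6 PE against saline 0 and MRL PE against uninjured 0. Quantile normalization, a constant prior variance and the replicate block each gave 0 for MRL PE against uninjured. The block gave 10 for B6 PE against uninjured and changed no other count. No sample title says that equal replicate numbers mark paired animals. A minimum mean log2 CPM of 1 gave 0 between strains after ECM.

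Leaving out 1 library, counts ranged from 0 to 4 for B6 saline against uninjured (4 without saline replicate 2), 0 to 10 for B6 PE against uninjured, 0 to 0 for B6 PE against saline, 0 to 14 for MRL PE against uninjured, 0 to 1 against saline (1 without saline replicate 1) and 0 to 5 against ECM (5 without PE replicate 3). Between strains they ranged from 0 to 1 in uninjured muscle and after ECM, 0 to 2 after saline (2 without B6 replicate 2, 1 without B6 replicate 3) and 0 to 12 with PE, and 0 to 2 for the PE interaction. Signs turned with library weights for MRL against B6: Col5a2 (-0.79) and Col12a1 (-1.28) after saline, and Col5a2 (-0.59) and Col6a1 (-0.65, gene by gene -0.57) with PE. Precision is limited by 3 libraries per group.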
